A study of Danio rerio with 2 samples.

Results

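The genes described here carry out DNA replication and mitosis. They were taken as a list of 38 symbols, from the Mcm helicase and the ribonucleotide reductase to cyclins, mitotic kinases and kinesins, and looked up by symbol in the deposited table of 51544 features. A symbol also counted for its copies ending in a or b. Of the 38 symbols 37 matched, to 40 gene rows: 23 rows of S phase genes, 16 rows of G2/M genes and ccnd1, a G1 cyclin that stands alone. ube2c, a ubiquitin-conjugating enzyme of mitotic exit, had no matching symbol in the names table and was not analysed here.

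RNA came from the heads of AB strain zebrafish embryos at 33 hours post fertilisation, severed before the otic vesicle. 1 library was from embryos of an rbm24a mutant line, in which TALEN cutting left an 8 bp deletion in the first exon, and 1 library was from wildtype embryos of the same strain and stage. The rbm24a gene encodes a protein that binds RNA, and the study as titled concerns crystallins and the clarity of the lens. A single mutant allele was studied, and the genotype label names the deletion without its zygosity. The number of heads per library is not stated in the labels. The deposited counts summed to 16667612 reads in the mutant library and 14148577 reads in the wildtype library. With 1 library per group no difference below has a replicate check and no p-value was computed. Intervals are 95% exact (Clopper-Pearson) intervals of the ratio between these libraries and cover counting error only.

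Cells copy their DNA once per cycle. The origin recognition complex and Cdt1 load the Mcm2-7 helicase in G1, and Cdc45 and the GINS complex turn it into the moving helicase of S phase. PCNA, the sliding clamp, and RPA, which coats single-stranded DNA, work at the fork, while ribonucleotide reductase and thymidylate synthase supply nucleotides. In mitosis Cdk1 with B cyclins, Plk1 and the Aurora kinases drive chromosome alignment, and Cdc20 triggers sister separation once the Bub proteins release it. In the embryonic head many dividing cells are brain and retina progenitors, and the lens keeps dividing cells in its front epithelium while fibre cells leave the cycle. S phase and G2/M genes are often read as marks of cells in those phases, but a bulk level cannot separate fewer cells of a type from less RNA per cell.

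The targeted gene rbm24a (ENSDARG00000102995) had 121 mutant reads and 224 wildtype reads, and its level was 2.18-fold lower in mutant heads (interval 1.74 to 2.74). The other row with the symbol RBM24 (ENSDARG00000031809), at few reads, was lower too, with 13 mutant and 31 wildtype reads (2.81-fold, interval 1.43 to 5.85). The lower level is thus not particular to the targeted gene, and its cause was not tested. A deletion of this size need not remove the transcript. Markers of the head were present in both libraries, with 13 rows summing to 654 CPM in the mutant and 557 CPM in the wildtype library. CPM scales each count to the summed reads of its library. Of 10 rows of trunk and tail markers 1 was measured, EVX1 with 40 mutant and 46 wildtype reads, and 9 rows in the mutant and 7 rows in the wildtype library had no read. A row with no read allows a level of up to 3 counts, which is 0.180 CPM in the mutant and 0.212 CPM in the wildtype library.

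No replication or mitosis gene differed by 2-fold between the libraries. A feature counted as measured when its mean over both libraries reached 1 CPM, and a difference was called when the log2 ratio, with a pseudocount of 1 CPM, reached 1 or -1. Of the 39 member rows measured, 0 were called. Over all 18094 features measured, 5.05% were called, 2.22% higher and 2.82% lower in the mutant library. The members are well expressed, and among the 6976 features whose mean reached 20 CPM, a limit chosen after the values were seen, 1.88% were called. A count of 0 of 39 is close to that share, so it does not set the members apart from the features above that limit. Those features were not matched to the members in level. None of the members is among the 37 genes in the authors' deposited table of significant genes in their comparison. With 37 genes listed beside 51544 features, that absence does not set a list of 40 rows apart. The row left unmeasured was an MCM6 copy (ENSDARG00000033231) with 12 mutant and 9 wildtype reads.

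Together the members took 1.188% of all mutant reads and 1.2025% of all wildtype reads. The S phase rows summed to 7462 CPM in the mutant and 7532 CPM in the wildtype library, a ratio of 0.991 (interval 0.983 to 0.999). The G2/M rows summed to 3429 CPM in the mutant and 3417 CPM in the wildtype library, a ratio of 1.004 (interval 0.991 to 1.016). The G2/M sum was 0.460 of the S phase sum in mutant heads and 0.454 in wildtype heads. The balance of these sums thus differed little between the libraries, but both sums rest on single rows with large differences. The near equality of the G2/M sums rests in large part on mki67, with 610 CPM in the mutant and 897 CPM in the wildtype library. That of the S phase sums rests in large part on an rrm2 copy (ENSDARG00000020711), with 553 CPM in the mutant and 334 CPM in the wildtype library. Sums without these rows were not computed. Of the 16 G2/M rows, 13 had a log2 ratio above 0, and of the 22 measured S phase rows 14 lay below 0.

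**Figure D1:**
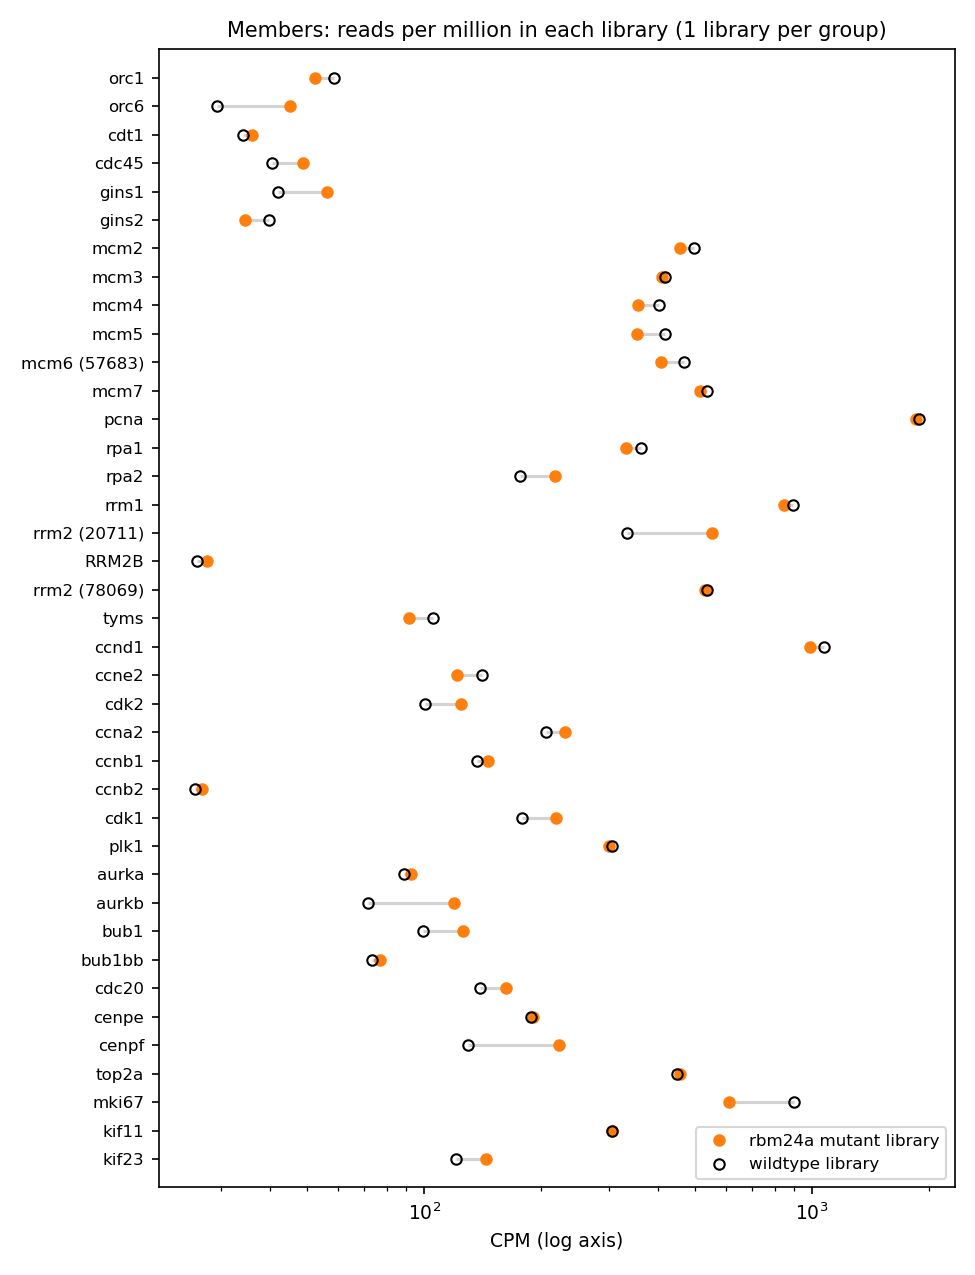
Level of each measured member in CPM (log axis), with filled points for the mutant library and open points for the wildtype library, ordered by role. Numbers in brackets are the last digits of the gene identifier. Most pairs overlap or nearly so, and the widest gaps belong to an rrm2 gene, orc6, aurkb, cenpf and mki67.

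Gene by gene the S phase rows lay on both sides of equality. Of 22 measured, 8 had a log2 ratio above 0 and 14 below, with a median of -0.04 and a range of -0.24 to 0.73. The median over all features measured was -0.00, with 49.8% above 0. The split depended on scaling, since with DESeq2 size factors 11 rows lay above 0 and 11 below. Counting intervals left out a ratio of 1 for 6 rows higher and 12 rows lower in the mutant library. Such intervals are narrow at these depths and left out 1 for 44.4% of all features measured and 56.4% of those whose mean reached 20 CPM.

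The Mcm2-7 subunits, which form 1 ring around DNA, were slightly lower together. All 6 measured subunits had log2 ratios below 0, between -0.24 and -0.02, and with DESeq2 size factors 5 of 6 did, mcm3 being at 0.01. Over all features measured 49.8% lay above 0. mcm5 had the lowest ratio, with 5891 reads in each library, or 353 CPM in the mutant and 416 CPM in the wildtype library (ratio 0.849, interval 0.819 to 0.880). mcm6 (ENSDARG00000057683) had 407 CPM in the mutant and 466 CPM in the wildtype library (ratio 0.873). mcm4 had 356 and 402 CPM, and mcm2 457 and 495 CPM, in the mutant and the wildtype library. The smallest differences were those of mcm7 and mcm3. mcm7 had 515 CPM in the mutant and 535 CPM in the wildtype library (ratio interval 0.933 to 0.992). mcm3 had 410 CPM in the mutant and 417 CPM in the wildtype library, with an interval that held 1 (0.951 to 1.02). The 6 genes summed to 2498 CPM in the mutant and 2731 CPM in the wildtype library (ratio 0.915), a small difference that 1 library per group cannot set against the spread between samples.

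Genes that load or switch on the helicase did not move as a block. orc6, the smallest subunit of the origin recognition complex, had 752 reads in the mutant and 414 reads in the wildtype library, 45.1 and 29.3 CPM (ratio 1.54, interval 1.37 to 1.74). orc1, the largest subunit, had 52.3 CPM in the mutant and 58.5 CPM in the wildtype library (ratio 0.894). gins1 had 56.3 CPM in the mutant and 42.1 CPM in the wildtype library (ratio 1.34, interval 1.204 to 1.48). gins2, a subunit of the same GINS complex, had 34.6 CPM in the mutant and 39.9 CPM in the wildtype library (ratio 0.867, interval 0.771 to 0.975). cdc45 had 48.8 and 40.4 CPM and cdt1 36.1 and 34.1 CPM in the mutant and the wildtype library. Subunits of the same complex thus had ratios on opposite sides of 1 in both cases. orc1, orc6, gins1 and cdt1 each overlap another gene in the RefSeq table. With the strand setting unknown, reads of overlapping genes cannot be told apart.

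PCNA was the member with the most reads. pcna had 30818 reads in the mutant and 26611 reads in the wildtype library, 1849 and 1881 CPM (ratio 0.983, interval 0.967 to 0.999). rpa1, the large RPA subunit, had 332 CPM in the mutant and 363 CPM in the wildtype library (ratio 0.914). rpa2, the middle subunit, had 217 CPM in the mutant and 176 CPM in the wildtype library (ratio 1.23, interval 1.17 to 1.296). Both rpa2 and pcna overlap another gene in the RefSeq table. For the fork proteins as a whole the sum was 2398 CPM in the mutant and 2420 CPM in the wildtype library.

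Nucleotide synthesis held the S phase row with the highest ratio. Ribonucleotide reductase pairs a large subunit, Rrm1, with a small one, Rrm2. The names table gives 2 genes the symbol RRM2, and the files do not say which zebrafish copy each is. The copy ENSDARG00000020711 had 9217 reads in the mutant and 4721 reads in the wildtype library, 553 and 334 CPM (ratio 1.66, interval 1.60 to 1.72). The copy ENSDARG00000078069 had 8829 reads in the mutant and 7579 reads in the wildtype library, 530 and 536 CPM (ratio 0.989, interval 0.959 to 1.02). Per length the first copy had 111 RPKM in the mutant and 66.9 RPKM in the wildtype library, and the second 139 RPKM in the mutant and 141 RPKM in the wildtype library. How reads that fit both copies were counted was not examined. RRM2B (ENSDARG00000033367), in mammals the small subunit induced by p53, counted as a copy by the name rule and had 27.5 CPM in the mutant and 25.9 CPM in the wildtype library. rrm1 had 845 CPM in the mutant and 894 CPM in the wildtype library (ratio 0.945). tyms, thymidylate synthase, had 91.5 CPM in the mutant and 106 CPM in the wildtype library (ratio 0.866, interval 0.806 to 0.931).

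The cyclins and their kinases lay within 0.31 of equality on the log2 scale. ccnd1, cyclin D1, which starts the passage through G1, had 16417 reads in the mutant and 15220 reads in the wildtype library, 985 and 1076 CPM (ratio 0.916, interval 0.896 to 0.936). ccne2, a cyclin E that acts with Cdk2 at S phase entry, had 122 CPM in the mutant and 141 CPM in the wildtype library (ratio 0.864). Its partner cdk2 had 125 CPM in the mutant and 100.6 CPM in the wildtype library (ratio 1.24, interval 1.16 to 1.33). The cyclins and the kinase of G2 and mitosis all had ratios above 1. ccna2, cyclin A of S phase and G2, had 230 and 206 CPM, and ccnb1 146 and 137 CPM, in the mutant and the wildtype library. ccnb2 had 26.8 CPM in the mutant and 25.7 CPM in the wildtype library, with an interval that held 1. cdk1, the kinase of mitotic entry, had 218 CPM in the mutant and 179 CPM in the wildtype library (ratio 1.22, interval 1.16 to 1.28).

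**Figure D2:**
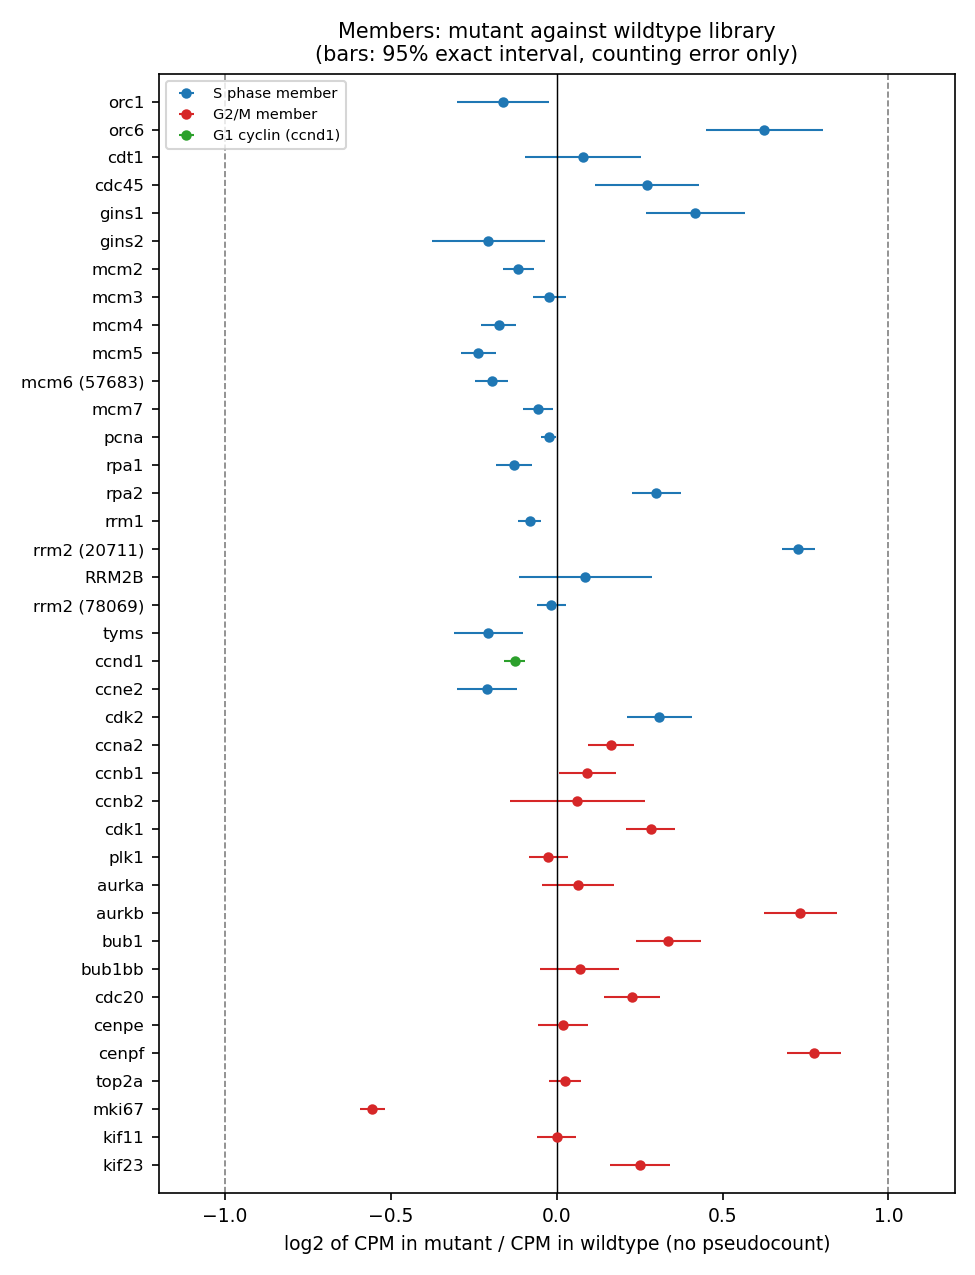
Log2 of the CPM ratio of the mutant over the wildtype library for each measured member, without a pseudocount, with 95% exact intervals that cover counting error only. Dashed lines mark 2-fold. All 39 points lie between the dashed lines, with mki67 lowest and cenpf highest.

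Most G2/M rows were slightly higher in the mutant library. Of 16 measured, 13 had a log2 ratio above 0 and 3 below, with a median of 0.08 and a range of -0.56 to 0.77, and with DESeq2 size factors 15 lay above 0 and 1 below. Among all features whose mean reached 20 CPM, 48.3% lay above 0 when scaled by the column sum. That share was not computed with DESeq2 size factors, which moved the median over all features from -0.00 to 0.03. Counting intervals left out a ratio of 1 for 8 rows higher and 1 row lower in the mutant library. Together these are 56.25% of the G2/M rows, close to the 56.4% of all features whose mean reached 20 CPM. The median of the S phase rows minus that of the G2/M rows was -0.12, and genes are not replicates, so that difference has no test.

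The mitotic kinases and checkpoint genes were uneven. aurkb, the catalytic subunit of the chromosomal passenger complex, had 1991 reads in the mutant and 1016 reads in the wildtype library, 119 and 71.8 CPM (ratio 1.66, interval 1.54 to 1.80). aurka, its relative at the spindle poles, had 92.5 CPM in the mutant and 88.6 CPM in the wildtype library (ratio 1.04, interval 0.969 to 1.13). plk1, the polo kinase, had 299.9 CPM in the mutant and 305 CPM in the wildtype library (ratio 0.983, interval 0.943 to 1.02). bub1, a kinase of the spindle checkpoint, had 126 CPM in the mutant and 99.5 CPM in the wildtype library (ratio 1.26, interval 1.18 to 1.35), while bub1bb, the BubR1 gene of that checkpoint, had 76.8 CPM in the mutant and 73.2 CPM in the wildtype library. cdc20, the activator that the checkpoint holds back, had 163 CPM in the mutant and 139 CPM in the wildtype library (ratio 1.17). Of these 6 genes 5 had log2 ratios above 0, against 48.3% of all features whose mean reached 20 CPM. With DESeq2 size factors all 6 did, as plk1 moved from -0.03 to 0.01. Those factors also moved the median over all features from -0.00 to 0.03.

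Kinetochore, chromosome and spindle genes held both extremes of the whole list. cenpf, a large protein of the outer kinetochore, had 3710 reads in the mutant and 1839 reads in the wildtype library, 223 and 130.0 CPM (ratio 1.71, interval 1.62 to 1.81). mki67, which encodes the proliferation marker Ki-67 that coats mitotic chromosomes, had 10167 reads in the mutant and 12696 reads in the wildtype library, 610 and 897 CPM (ratio 0.680, interval 0.662 to 0.698). These 2 genes thus differed in opposite directions. cenpe, the kinetochore kinesin, had 191 CPM in the mutant and 188 CPM in the wildtype library (ratio 1.01, interval 0.962 to 1.07). kif11, the kinesin that pushes spindle poles apart, had 306 CPM in each library (ratio 1.000, interval 0.960 to 1.04). top2a, the topoisomerase that untangles sister chromatids, had 457 and 450 CPM (ratio 1.02, interval 0.984 to 1.05), and kif23, a kinesin of cytokinesis, 144 and 121 CPM (ratio 1.19) in the mutant and the wildtype library.

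The 5 rows with an absolute log2 ratio of at least 0.5 were cenpf at 0.77, the rrm2 copy ENSDARG00000020711 at 0.73, aurkb at 0.73, orc6 at 0.61 and mki67 at -0.56. They are 12.8% of the 39 rows. Over all features measured 19.4% reached that size, and 9.22% of those whose mean reached 20 CPM did. Of the members 28 of 39, or 71.8%, lay within 0.25 of equality on the log2 scale, and of the features whose mean reached 20 CPM 69.3% did. By either measure the members stood near the features whose mean reached 20 CPM. Among the other 4 genes, since the rrm2 copy could not be looked up by a single RefSeq symbol and was not checked, orc6 and mki67 overlap another gene in the RefSeq table, mylk3 and a long noncoding RNA, whose reads cannot be told apart without the strand setting. mylk3 itself had 16 mutant and 21 wildtype reads.

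**Figure D3:**
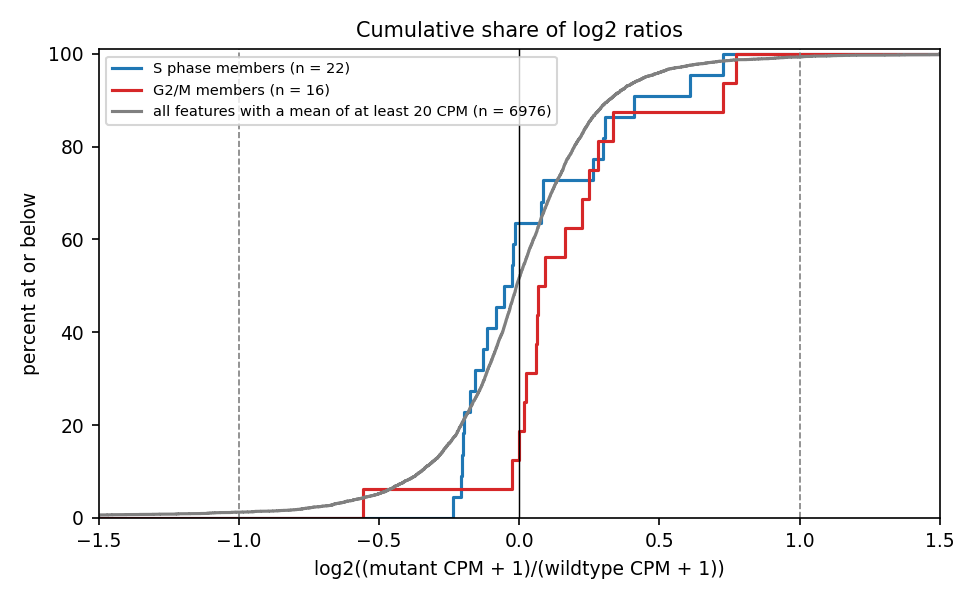
Cumulative share of log2 ratios (pseudocount of 1 CPM) for the 22 S phase rows, the 16 G2/M rows and the 6976 features whose mean reached 20 CPM. The S phase curve runs close to that of all features and the G2/M curve lies to its right over most of its length, except for mki67 at its lower end.

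Levels between genes can be compared only per length, on the authors' RPKM scale. pcna had the highest RPKM, 814 in mutant heads and 828 in wildtype heads, and rrm1 came next, with 197 RPKM in the mutant and 209 RPKM in the wildtype library. The lowest were orc1, with 7.81 RPKM in the mutant and 8.73 RPKM in the wildtype library, and bub1bb, with 9.50 RPKM in the mutant and 9.06 RPKM in the wildtype library. The order was alike in both libraries, and the widest move was that of the rrm2 copy ENSDARG00000020711, at place 10 of 39 in mutant heads and place 17 in wildtype heads. ccnb1, at 27.9 RPKM in the mutant and 26.2 RPKM in the wildtype library, was above its relative ccnb2 in both. Without replicates neighbours in this order cannot be told apart. The length behind an RPKM value was recovered from the counts, and for mcm6 it was 18437 bp, against 3062 bp for mcm3 and 4196 bp for mcm2. mcm6 then had 22.1 RPKM in the mutant and 25.3 RPKM in the wildtype library, from 6785 mutant and 6600 wildtype reads, so its RPKM cannot be set against those of the other subunits. The implied length was 6699 bp for orc1 and 8084 bp for bub1bb. For ccnb1 it was 5240 bp, longer than the span of 3763 bp listed for that gene. The places of these genes in the order, and the comparison of ccnb1 with ccnb2, depend on lengths that were not checked.

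Wider lists of the same processes gave the same picture of small differences. Among 50 other replication genes measured, 0 were past 2-fold, 26 lay above 0 and 24 below, and the median log2 ratio was 0.02. gins4, a further subunit of GINS, had the largest ratio, with 1232 reads in the mutant and 559 reads in the wildtype library, 73.9 and 39.5 CPM (ratio 1.87, interval 1.69 to 2.07). prim2, the large primase subunit, followed with 104 CPM in the mutant and 79.3 CPM in the wildtype library (ratio 1.31). Among 69 other mitosis genes measured, 0 were past 2-fold, 45 lay above 0 and 24 below, and the median was 0.06. Of all features whose mean reached 20 CPM, 1.88% were past 2-fold and 48.3% lay above 0. Counts of 0 past 2-fold in lists of this size are close to that share. spc24, of the Ndc80 kinetochore complex, had 355 reads in the mutant and 557 reads in the wildtype library, 21.3 and 39.4 CPM (ratio 0.541, interval 0.472 to 0.619). cdca8, the Borealin subunit of the chromosomal passenger complex, had 117 CPM in the mutant and 74.6 CPM in the wildtype library (ratio 1.57, interval 1.45 to 1.69). The row birc5b, with 0 mutant and 7 wildtype reads, was not measured. No row matched dut, clspn and cdc25a of the replication list or cenpa, cenpc and incenp of the mitosis list.

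Set side by side, subunits of the same complex often had unlike ratios. These groupings were made after the values were seen, and no groups of unrelated genes were compared with them. In the origin recognition complex the log2 ratios ran from -0.16 for orc1 to 0.61 for orc6, and in GINS from -0.20 for gins2 to 0.89 for gins4. Both orc1 and orc6 overlap another gene in the RefSeq table, and genes of the wider lists were not checked for overlap. In the Ndc80 complex spc24 was at -0.86 and its direct partner spc25 at 0.37. In the chromosomal passenger complex aurkb and cdca8 were at 0.73 and 0.64, while birc5a, the Survivin gene, was at -0.01, with 55.0 CPM in the mutant and 55.5 CPM in the wildtype library. incenp, of the same complex, had no matching symbol. Of 5 checkpoint genes all lay above 0, between 0.07 and 0.33. Mcm2-7 spanned 0.21, the narrowest range of the 12 groups compared.

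**Figure D4:**
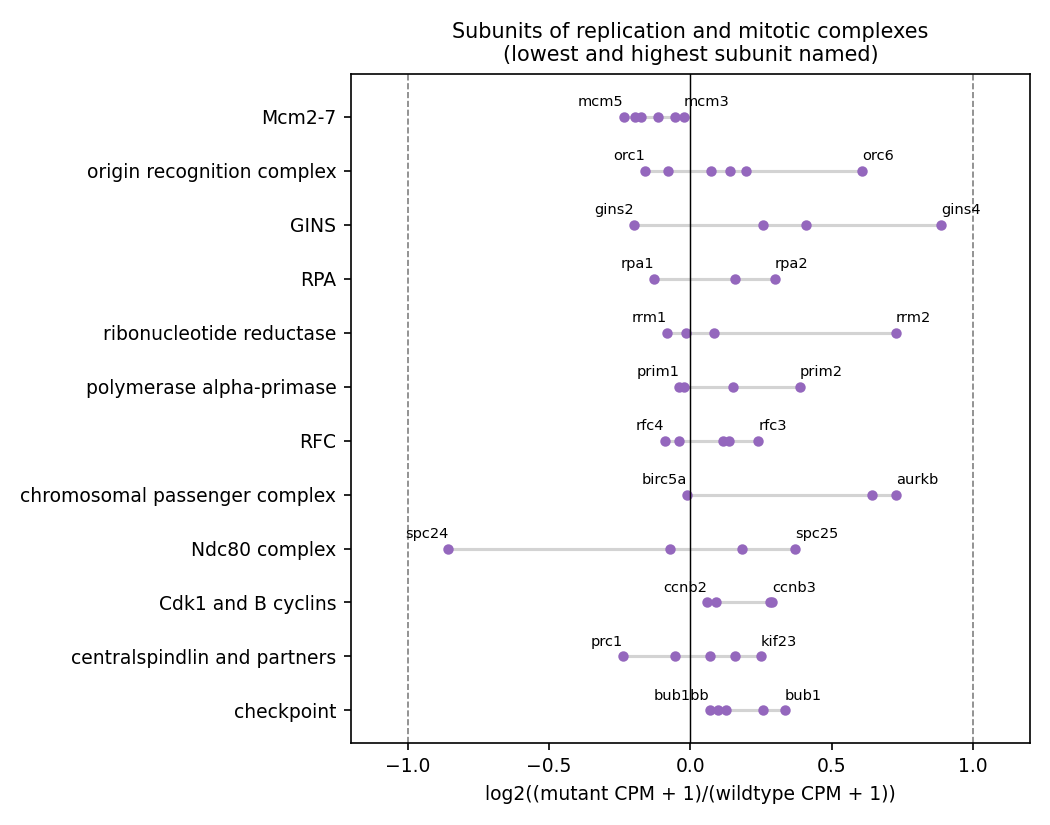
Log2 ratios (pseudocount of 1 CPM) of the measured subunits of 12 replication and mitotic groups, 1 point per gene, with the lowest and the highest named. Mcm2-7 is narrow and below 0, and the Ndc80 complex and GINS are the widest.

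Genes that regulate the cycle also stayed within 2-fold. Over all features measured 5.05% were past 2-fold and 49.8% lay above 0, so a count of 0 does not set lists this small apart. Of 15 measured genes of the anaphase-promoting complex, the ubiquitin ligase of mitotic exit, 13 lay above 0 and 2 below, with a median of 0.18. anapc5 and anapc1 had the largest ratios, with 39.6 and 64.2 CPM in the mutant and 27.3 and 47.2 CPM in the wildtype library. Of 24 measured G1/S regulators, 11 lay above 0 and 13 below, or 14 and 10 with DESeq2 size factors, with a median of -0.01. In that list cdk6, a kinase partner of D cyclins, had 19.6 CPM in the mutant and 28.5 CPM in the wildtype library (ratio 0.689, interval 0.593 to 0.799), and e2f6, a repressor of the E2F family, 33.2 CPM in the mutant and 24.9 CPM in the wildtype library (ratio 1.34).

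Genes that slow or stop the cycle were more spread out, with 6 of 19 rows at an absolute log2 ratio of at least 0.5. Several were low, such as cdkn2c at 4.38 CPM in the mutant and 3.89 CPM in the wildtype library, with a log2 ratio of 0.14. The largest absolute log2 ratios were those of tob1b, ccng2 and ccng1, with means of 29.3, 55.8 and 680 CPM. The other rows that reached 0.5 were low, a GADD45G row, a GADD45B row and cdkn1a, with means of 6.53, 2.38 and 3.47 CPM. The part of expression level in this spread was not tested. Of all features measured 19.4% reached 0.5, against 9.22% of those whose mean reached 20 CPM. Of 19 measured, 0 were past 2-fold, 7 lay above 0 and 12 below, with a median of -0.11. tob1b, an antiproliferative gene, had 350 reads in the mutant and 533 reads in the wildtype library, 21.0 and 37.7 CPM (ratio 0.557, interval 0.486 to 0.639). ccng2, cyclin G2, had 40.9 CPM in the mutant and 70.7 CPM in the wildtype library (ratio 0.578, interval 0.524 to 0.638). ccng1, a p53 target, went the other way, with 834 CPM in the mutant and 526 CPM in the wildtype library (ratio 1.59, interval 1.54 to 1.63). Because ccng1 had so many reads, the list's sum was 1712 CPM in the mutant and 1503 CPM in the wildtype library, higher in the mutant library, while its median was below 0. The Cdk inhibitor cdkn1a, named with ccng1 after its values were seen, had 71 reads in the mutant and 38 reads in the wildtype library, and cdkn1ca had 130 CPM in the mutant and 132 CPM in the wildtype library.

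Marker levels of several cell types differed between the libraries. Lens markers summed to 337 CPM in the mutant and 2045 CPM in the wildtype library, with 13 of 13 rows past 2-fold lower, and erythrocyte markers to 111 CPM in the mutant and 801 CPM in the wildtype library, with 7 of 7. Neuron markers lay below 0 in 14 of 15 rows and summed to 1710 CPM in the mutant and 2127 CPM in the wildtype library. Neural progenitor markers were mixed in direction, below 0 in 10 of 16 rows and above 0 in 6. Their median log2 ratio was -0.26, as was that of the neuron markers, against -0.00 over all features measured. The progenitor rows summed to 3002 CPM in the mutant and 3439 CPM in the wildtype library (ratio 0.873). The rows above 0 were gfap, sox2, sox19a, sox19b, msi1 and a FABP7 row. gfap had 151 CPM in the mutant and 120.0 CPM in the wildtype library, and sox2 178 and 146 CPM. The rows below 0 included sox3 and those of NOTCH1, NOTCH3, HES6, her4 and her15.1. In that list her4.1, a Notch target, was the row past 2-fold (2 rows were with DESeq2 size factors), with 17.04 CPM in the mutant and 43.6 CPM in the wildtype library. FABP7, of radial glia, matched 2 rows. ENSDARG00000007697, the more abundant, was at 409 CPM in the mutant and 570 CPM in the wildtype library (ratio 0.718), and ENSDARG00000034650 was at 20.1 CPM in the mutant and 9.68 CPM in the wildtype library (ratio 2.08, log2 ratio 0.98 with the pseudocount). Retina markers lay below 0 in 7 of 11 rows, and their sums were 709 CPM in the mutant and 712 CPM in the wildtype library. atoh7 was the retina row past 2-fold, with 10.02 CPM in the mutant and 34.99 CPM in the wildtype library. The part of these markers in the small differences of the replication and mitosis genes was not tested.

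**Figure D5:**
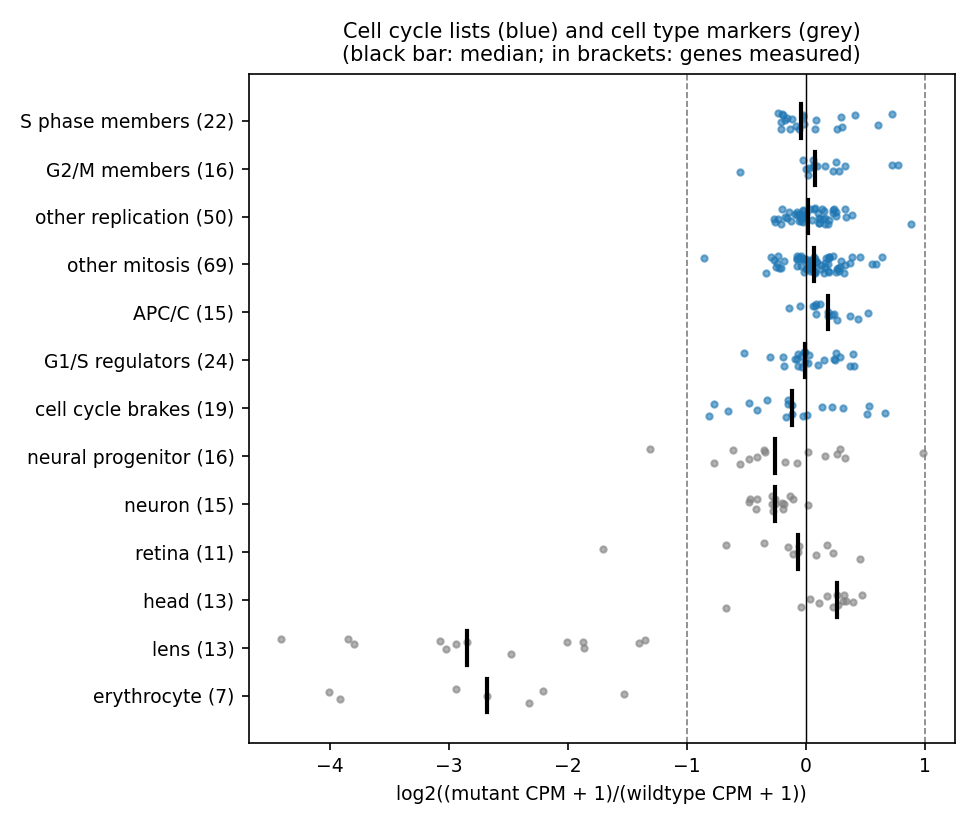
Log2 ratios (pseudocount of 1 CPM) of the cell cycle lists, in blue, and of cell type markers, in grey, 1 point per gene, with a black bar at each median and the number of genes measured in brackets. All cell cycle lists centre near 0 and stay between the dashed 2-fold lines, while lens and erythrocyte markers lie below -1.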

How the data were processed

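TruSeq RNA libraries were read as 100 bp pairs, per the labels' protocols. The submitters' processing notes name HISAT2 2.0.1, HTSeq 0.6.1, DESeq2, cutadapt, bcl2fastq 2.17.1.14 and build GRCz11. Neither the annotation release nor the strand setting is stated there. With strand unknown, reads of overlapping genes cannot be told apart: of 35 members with a unique RefSeq symbol, 14 overlap another gene in assembly GRCz12tu. They are cdk1, cdk2, cdt1, gins1, mcm2, mcm3, mcm7, mki67, orc1, orc6, pcna, rpa2, top2a and tyms. The protocol mentions more independent samples, and 1 library per group was analysed here.

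The deposited table gives whole-number counts per feature, and the authors' RPKM values. The length implied by RPKM and counts was the same in both libraries within 0.393% for 2414 features with at least 1000 reads in each. The deposited table of the authors' comparison also holds counts, FPKM, a p-value, and a fold (ratio) with the log2 of it. From that deposited table the gene identifiers alone were used, and 3 of its columns, of normalised counts, were not matched to a sample. The rbm24a row was told from rbm24b by its span, 35150 bp against 35948 bp for rbm24a and 21126 bp for rbm24b in the RefSeq table.

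Counts were scaled to CPM by the column sum, with a pseudocount of 1 CPM and a minimum mean of 1 CPM. PCR reads are not independent molecules, so intervals may be too narrow. Python 3.11.15, scipy 1.17.1, edgeR 4.0.16 (TMM factors) and DESeq2 1.42.0 (size factors) were used, and the steps were tested on simulated data. Symbols came from a table of gene names. Fuller values are given for the 4 highest and 4 lowest ratios of the S phase and of the G2/M list, for cycling markers and copies, and for the 2 largest absolute ratios and any past 2-fold of each other cell cycle list. Other genes named were picked after their values were seen. The members and lists were chosen with earlier results of these data known.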

Additional observations from a re-analysis of the deposited data

How the results depend on the processing

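No paired analysis was possible because there is a single library of each genotype, which also means that none can be left out. The count of members past 2-fold was 0 in the S phase and 0 in the G2/M list under every alternative run: pseudocounts of 0.1 and 5 CPM, no filter, a mean of at least 5 CPM, TMM factors, DESeq2 size factors, deposited RPKM, annotated genes alone, ccnd1 among the S phase genes, ccna2 left out and exact names only. Over these the S phase median lay between -0.06 and -0.01, the G2/M median between 0.07 and 0.11, and the S phase minus G2/M difference between -0.14 and -0.10. Of 312 values of single members under 8 alternatives, 310 stayed within their counting interval and none passed 2-fold. The 2 outside it were pcna and ccnd1 with DESeq2 size factors. Part of this was fixed in advance. A filter cannot change the ratio of a single gene, and apart from the pseudocount length cancels from an RPKM ratio. The mean of at least 5 CPM left the same 22 S phase and 16 G2/M rows. Scaling shifts all log2 ratios alike apart from the pseudocount, so it could hardly move the S phase minus G2/M difference. In all, 5 members with log2 ratios within 0.03 of 0 (mcm3, pcna, an rrm2 copy, plk1 and kif11) changed sign under TMM factors or DESeq2 size factors. The number of all features past 2-fold was 97 higher and 164 lower with a pseudocount of 5 CPM, and 672 higher and 830 lower with 0.1 CPM, against 402 and 511 with 1 CPM. Scaling of the other lists and the limit of 20 CPM were added after seeing the data. Depth sets the counting error, and the spread between samples is unknown.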
